A study of Homo sapiens with 14 samples.

Results

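The 40 genes described here encode enzymes and membrane proteins of the lysosome, together with TFEB, a transcription factor that switches many such genes on. They were taken as a list of gene symbols from the 54628 symbols of the count files, and all 40 symbols were found. The list was chosen with earlier results of these data known. RNA was counted in 14 libraries of IMR90, an established strain of primary human lung fibroblasts. The series addresses the splicing program of senescent cells and the CTCF clusters on their nuclear speckles. Senescence was induced with up to 6 days of 10 µM inflachromene (ICM), an HMGB-binding small molecule. The 7 groups, of 2 libraries each, were untreated cells (WT), untreated cells with siRNA against HMGB2 (siHMGB2), ICM-treated cells in 2 sets (ICM 1-2 and ICM 3-4), and ICM-treated cells labelled as knockdowns of SRRM2 (siSRRM2), BANF1 (siBANF1) or CTCF (siCTCF). The labels of ICM 3-4 and siCTCF differ in form from the others and give the cell line other numbers than IMR90, and WT has no library of that form, so treatment and label set cannot be told apart in ICM 3-4 against WT. The labels name more than 1 isolate of the line without tying them to libraries and do not say whether replicates were separate cultures, so p-values measure only the spread between these libraries.

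The lysosome is an acidic compartment in which proteins, glycans, sulfated sugar chains and lipids are broken down. A vacuolar proton pump acidifies it, soluble hydrolases do the digestion, and heavily glycosylated membrane proteins line its wall. In senescent fibroblasts the compartment is known to enlarge, and the activity of the lysosomal beta-galactosidase encoded by GLB1, assayed away from its optimal pH, is the classical stain for senescent cells. TFEB and its relative TFE3 bind an E-box-type element, CACGTG with preferred flanks, in the promoters of many lysosomal genes. By role, the list holds 10 glycosidases, 5 sulfatases, 9 proteases, 7 genes of lipid breakdown and cholesterol export, 5 membrane proteins, 3 proton pump genes and TFEB.

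Promoter stretches that hold the TFEB-type element are shown because part of the list holds it, at a higher share than all genes. Most of the promoters given lack it. RefSeq (GRCh38.p14) promoters, 250 bases before to 50 bases after a gene's start, were given for 27 of the 40 genes. Capitals mark the motif found, which is TCACGTGA or its 10-base form with G before and C after it. Both, and the shorter CACGTG, are their own reverse complements, so a match counts for both strands, and the shorter motifs lie inside the longer. Positions are 5′ to 3′ on the gene's strand.
MCOLN1, chr19:7522598-7522623, plus strand: gggctaccggGTCACGTGACcgaggc
MCOLN1, chr19:7522571-7522600, plus strand: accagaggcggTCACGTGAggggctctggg
GAA, chr17:80101493-80101522, plus strand: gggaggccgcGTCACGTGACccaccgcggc
GALNS, chr16:88857104-88857133, minus strand: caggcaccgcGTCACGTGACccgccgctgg
LAMP1, chr13:113297199-113297228, plus strand: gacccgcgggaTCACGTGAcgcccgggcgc
ATP6V0D1, chr16:67481199-67481228, minus strand: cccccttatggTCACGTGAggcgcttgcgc
In GENCODE v29 the GALNS stretch overlaps an exon of the neighbouring gene TRAPPC2L, the ATP6V0D1 stretch overlaps an ATP6V0D1 exon, and the MCOLN1, GAA and LAMP1 stretches overlap no exon. The 10-base motif was in the promoter of 3 of the 27 genes (11.1%) against 0.421% of 27305 genes with a promoter entry. TCACGTGA was in 6 of 27 (22.2% against 1.18%), and CACGTG in 9 of 27 (33.3% against 8.77%). The promoters of GLB1, CTSL, GLA, TPP1 and NPC1 held no match in this window. The LAMP1 promoter held 5 further copies of CACGTG, 1 of them within a second TCACGTGA, and that of GAA a further copy of the 10-base form. A match describes letters and not a bound site.

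Library composition and depth differed between the sets. The ICM 3-4 and siCTCF libraries were the shallowest, with 22336161 to 26779027 gene counts, and the others held 33561766 to 58257456. Small RNA genes took at most 0.00812% of gene counts in WT, siHMGB2, ICM 3-4 and siCTCF, but 3.19% to 6.06% in the other 6 libraries. Mitochondrial mRNA took 2.7% to 3.54% in WT and siHMGB2 and 0.0675% to 0.754% in the ICM-treated libraries. The share of reads assigned to no gene was highest in siBANF1 1 (41.78%) and ICM 1 (35.24%), against 12.75% to 30.14% elsewhere. Replicates of ICM 1-2 and of siBANF1 lay far apart: between their 2 libraries 17 of the 39 genes tested below differed by more than 2-fold in each group, against 0 in each of the other 5 groups. Levels are in CPM, counts per 1000000 counts assigned to genes in that library. HMGB2 had 3.18 and 3.52 CPM in siHMGB2 against 27.7 and 28.0 CPM in WT, although in the single fit of all libraries this difference was not called (adjusted p 0.201). In siCTCF, CTCF had 71.5 and 23.0 CPM against 94.9 and 91.9 CPM in ICM 3-4. In the libraries labelled siBANF1, BANF1 had 17.0 and 36.7 CPM against 13.5 and 32.7 CPM in ICM 1-2, and SRRM2 was lower there (59.0 and 17.0 CPM) than under the siSRRM2 label (76.1 and 76.4 CPM). SRRM2 had 238 and 112 CPM in ICM 1-2, so both libraries of the siSRRM2 label lay below it. BANF1 had 34.2 and 33.3 CPM under the siSRRM2 label, so it lay below both ICM 1-2 libraries under neither label. The targets thus do not bear out the siBANF1 label. They do not settle the siSRRM2 label either, since SRRM2 was lowest under the siBANF1 label. The names of the deposited files give each pair the other knockdown, so both groups are called here by their labels only. Of the senescence genes, CDKN1A had 1186 to 1468 CPM in WT and siHMGB2. It had 1529 CPM in ICM 1, 1520 CPM in siBANF1 1 and 6974 to 13422 CPM in the other ICM-treated libraries. LMNB1 (18.7 to 21.4 CPM in WT and siHMGB2) had 1.54 to 4.25 CPM in the ICM-treated libraries. MKI67 went from 30.5 to 38.8 CPM to 0 to 1.09 CPM, and CDKN2A from 23.1 to 32.1 CPM to 8.99 to 24.3 CPM. The 11 fibroblast markers summed to 21412 to 36570 CPM in WT and siHMGB2 and to 2052 to 13940 CPM in the ICM-treated groups. None was at 0. The 7 immune markers summed to 0.875 to 13.3 CPM, with PTPRC and TYROBP at 0 or under 0.1 CPM in every library. CD14 made up most of the higher sums, at 12.9 CPM in ICM 1, 5.5 and 6.25 CPM in siSRRM2 and 4.23 CPM in siBANF1 1, against 1.34 and 0.576 CPM in WT.

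The 40 genes together took a similar share of the RNA in most libraries. They summed to 7331 to 7732 CPM in WT and siHMGB2 and to 6807 to 7278 CPM in ICM 3-4 and siCTCF. The sums were 8399 and 5232 CPM in ICM 1-2, 5617 and 5601 CPM under the siSRRM2 label, and 8360 and 5239 CPM under the siBANF1 label. ICM 1 and siBANF1 1 were therefore the highest of the 14, and ICM 2 and siBANF1 2 the lowest. In a bulk library, fewer cells of a type and less RNA per cell cannot be told apart. Per kilobase of exon, PSAP (361 CPM per kb, the precursor of the saposins that present sphingolipids to their hydrolases) and CD63 (325, a tetraspanin) had the highest mean levels in WT, followed by the cathepsins CTSD (158) and CTSB (138). In ICM 3-4 the order began with CD63 (353) and PSAP (328), whose library ranges overlapped, then CTSD (192), and CTSL (148) took the fourth place that CTSB held in WT. CTSO, a papain-family protease, was last in WT and in ICM 3-4. It had 8 counts in all, and the 10 libraries with none allow up to 0.134 CPM each, so it was not tested, which left 39 genes.

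**Figure D1:**
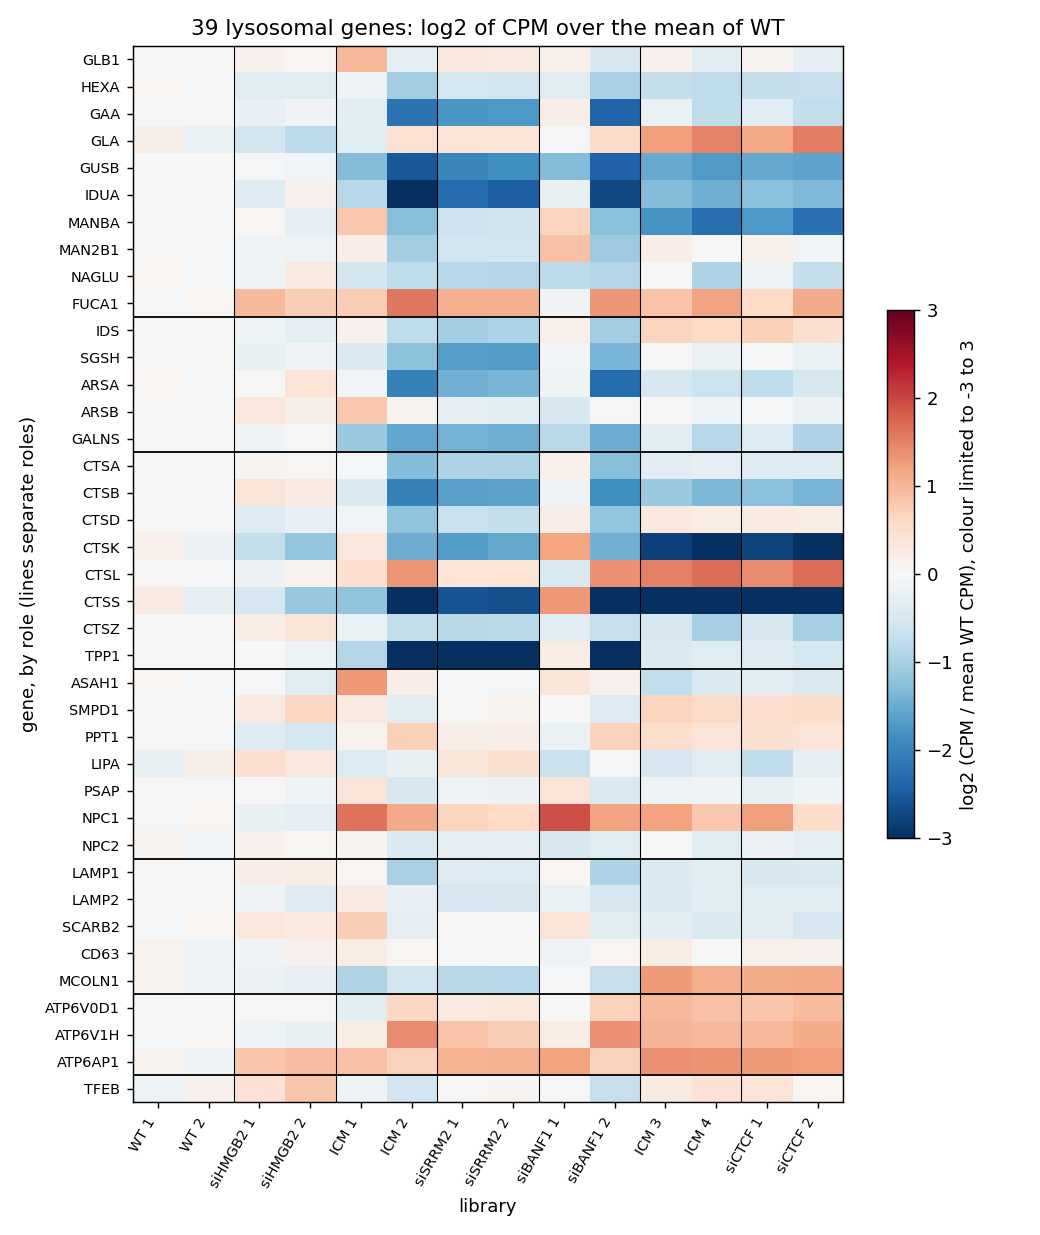
Log2 ratio of each gene's CPM in each library to its mean in WT, for the 39 genes tested, ordered by role (rows) and the 14 libraries (columns). ICM 1 and siBANF1 1 resemble neither ICM 2 nor siBANF1 2, and the siCTCF libraries follow ICM 3 and ICM 4.

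GLB1, the senescence-associated beta-galactosidase, showed no called change in any of the 8 comparisons. Its level was 108 CPM in both WT libraries and 119 and 112 CPM in siHMGB2. ICM 1 stood at 217 CPM and ICM 2 at 89.4 CPM, so the 2 libraries lay on either side of WT. These 2 libraries also differed in CDKN1A (1529 and 6974 CPM, against 1186 and 1225 CPM in WT), and its link to GLB1 was not tested. GLB1 was at 118 and 87.1 CPM in ICM 3 and ICM 4, again on either side. Under the siSRRM2 label GLB1 had 136 and 131 CPM, under the siBANF1 label 121 and 78.0 CPM, and in siCTCF 114 and 87.9 CPM. Ordered by mean, ICM 1-2 (153 ± 90.0 CPM, SD, n = 2) came first, then siSRRM2 (133 ± 3.58 CPM), siHMGB2 (116 ± 4.86 CPM) and WT (108 ± 0.411 CPM), and then ICM 3-4 (103 ± 22.0 CPM), siCTCF (101 ± 18.1 CPM) and siBANF1 (99.6 ± 30.4 CPM). Among neighbours in this order, only siSRRM2 and siHMGB2, and siHMGB2 and WT, have library ranges that do not overlap. The log2 fold change of GLB1 was 0.40 (SE 0.42, adjusted p 0.549) in ICM 1-2 and -0.31 (SE 0.42, adjusted p 0.601) in ICM 3-4 against WT, and these comparisons share the WT libraries. The first rests on ICM 1: without it the value was -0.48, and without ICM 2 it was 0.94 (adjusted p 0.114). In RefSeq GLB1 lies at chr3:32961108-33097146 (GRCh38.p14).

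**Figure D2:**
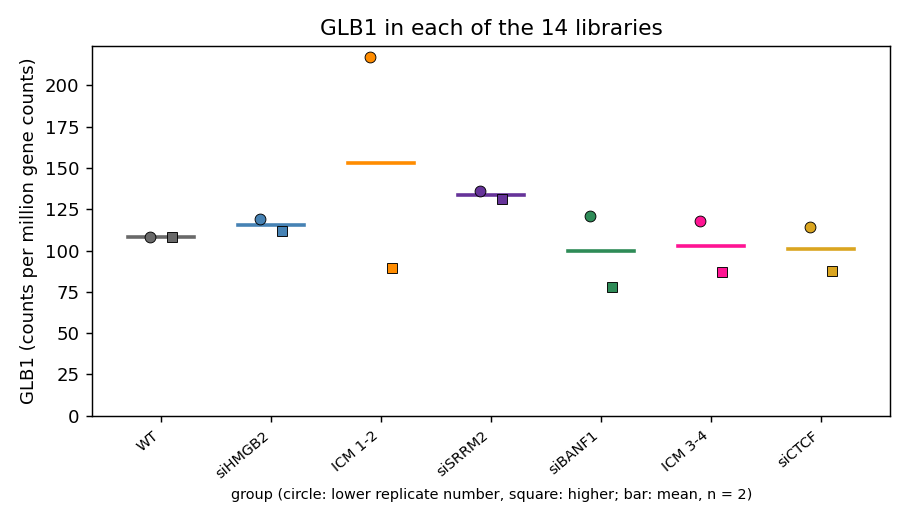
GLB1 level in CPM (vertical axis, from 0) in each of the 14 libraries, by group, with the group mean as a bar. ICM 1 is highest at 217 CPM, and ICM 2 and ICM 4 lie below both WT libraries.

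Against WT, ICM treatment came with higher and lower lysosomal genes rather than a common rise. In ICM 3-4, 10 of the 39 genes tested were called at an adjusted p under 0.05 in the single fit of all libraries. In the same fit 30.3% of 19126 genes were called (14.3% higher, 16.0% lower), so there the share of the list is near that of all genes. CTSL, GLA, ATP6AP1 and MCOLN1 rose, and CTSS, CTSK, MANBA, GUSB, HEXA and CTSZ fell. Over the 39 genes, 13 had a positive and 26 a negative fold change, with a median of -0.44 against -0.02 over all genes. In ICM 1-2, 3 of the 39 were called, where 13.5% of all genes were (6.63% higher, 6.87% lower). NPC1 rose and GALNS and GUSB fell, 13 values were positive and 26 negative, and the median was -0.39 against 0.10 over all genes. GUSB fell in both comparisons, which share their WT libraries. Both counts depend on the libraries that share the estimate of spread. With the 4 compared libraries alone in the fit, 25 of the 39 genes were called in ICM 3-4 (8 higher and 17 lower). Of all genes 47.8% were called (23.9% higher and 23.9% lower), so the list had the larger share, on the lower side. Beyond the genes called in the single fit, NPC1, ATP6V1H, ATP6V0D1 and FUCA1 rose. IDUA, ASAH1, GALNS, ARSA, CTSB, CTSA, LIPA, LAMP1, LAMP2, SCARB2 and TPP1 fell. Without ICM 1-2 and siBANF1 in the fit it was 29 (9 higher, 20 lower), where 10486 of 19124 genes were called. Below, a gene without a call is one not called in the single fit, unless another fit is named. In ICM 1-2 the edgeR fit to the 4 compared libraries called 0 of 39 and 0.173% of all genes. At an unadjusted p under 0.05 it called 5 of 39 and 21.0% of all genes. DESeq2 on all libraries called 5 of 39 and 4010 of 19126 genes in ICM 1-2. Leaving out WT 1 or WT 2 also gave 0 of 39 (4 of 39 at an unadjusted p under 0.05 each), where 2.94% and 2.85% of all genes were called. Scaling by total counts gave 6 higher and 4 lower in ICM 3-4. It moved the median of all genes from -0.02 to 0.18 in ICM 3-4 and from 0.10 to 0.24 in ICM 1-2. The median of the 39 genes moved from -0.44 to -0.20 in ICM 3-4 and from -0.39 to -0.29 in ICM 1-2. In ICM 3-4 the genes called over the whole table were then 3448 higher and 2449 lower against 2732 and 3065. Leaving out ICM 1 gave 6 called genes in ICM 1-2, ATP6V1H higher and CTSB, GALNS, GUSB, HEXA and IDUA lower, where 18.9% of all genes were called (9.30% higher, 9.59% lower). Leaving out ICM 2 gave 2, ASAH1 and NPC1, both higher, where 4.71% of all genes were called higher. In ICM 3-4, leaving out any 1 of the 4 libraries left 1 to 3 called genes.

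**Figure D3:**
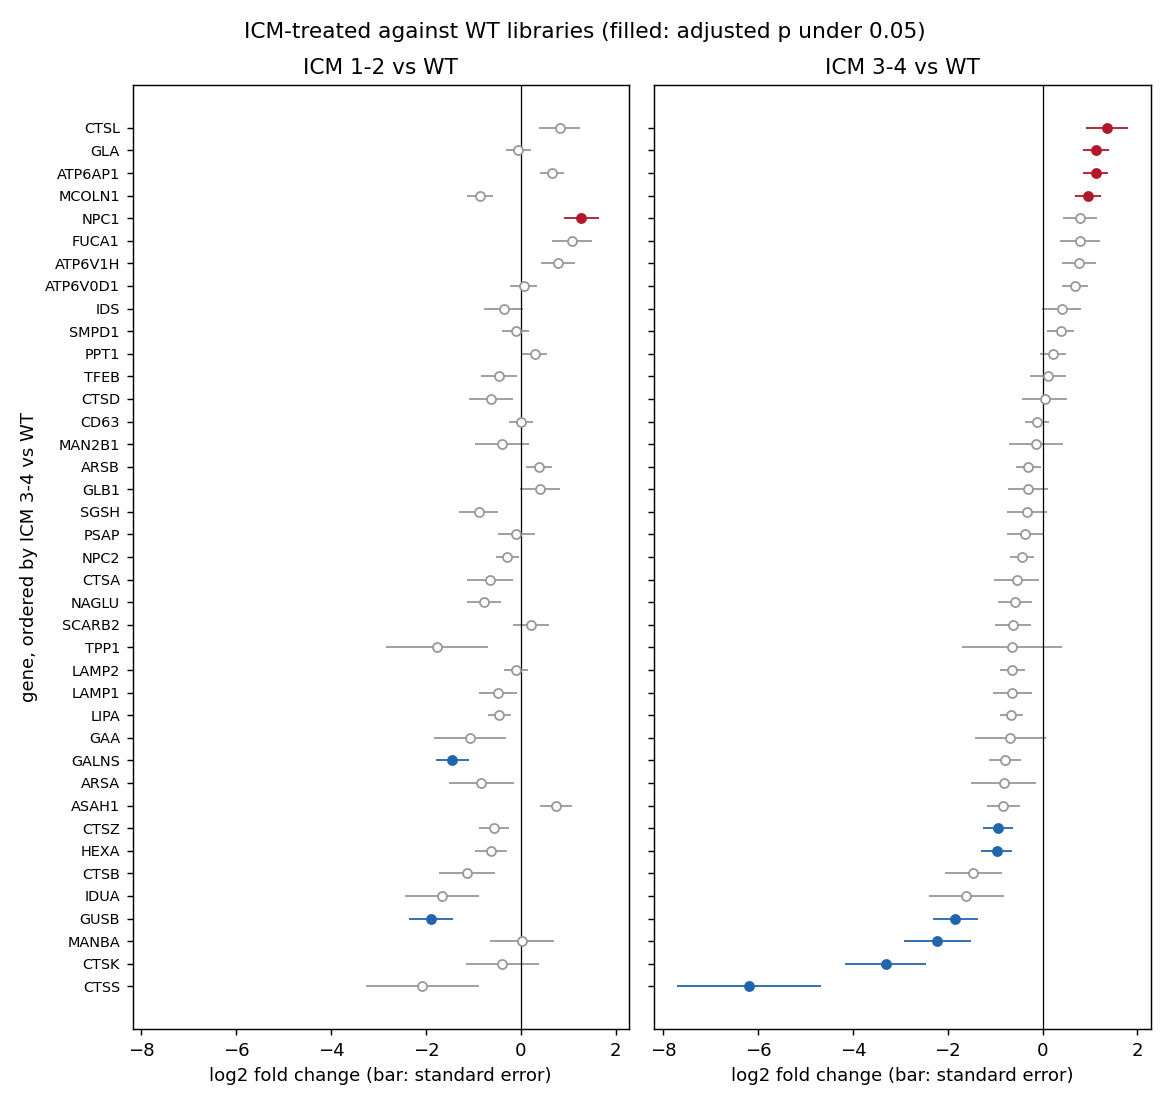
Log2 fold change against WT with its standard error (horizontal axis) for the 39 genes tested, ordered by their value in ICM 3-4, for ICM 1-2 (left) and ICM 3-4 (right). Filled points passed an adjusted p of 0.05, 3 on the left and 10 on the right, and they lie on both sides of 0.

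The glycosidases remove sugars from glycoproteins and glycolipids. GLA, the alpha-galactosidase that clears globotriaosylceramide, was at 56.2 and 43.5 CPM in WT, against 119 and 140 CPM in ICM 3-4. The groups did not overlap, and the rise was 1.13 on the log2 scale (SE 0.27, adjusted p 0.0127). ICM 1 and ICM 2, at 38.8 and 68.4 CPM, lay on either side of WT. MANBA, a beta-mannosidase of glycoprotein breakdown, fell from 124 and 120 CPM in WT to 35.8 and 25.5 CPM in ICM 3-4 (log2 fold change -2.22, SE 0.71, adjusted p 0.0386). ICM 1 had 213 CPM and ICM 2 50.7 CPM, so no direction can be read in ICM 1-2 (0.03). GUSB, the beta-glucuronidase that acts on glycosaminoglycans, was at 37.3 and 38.2 CPM in WT, 15.3 and 6.52 CPM in ICM 1-2 and 13.3 and 11.6 CPM in ICM 3-4. All 4 ICM libraries lay below WT, with fold changes of -1.89 (SE 0.47, adjusted p 0.0253) in ICM 1-2 and -1.84 (SE 0.47, adjusted p 0.0159) in ICM 3-4. The files list 19 GUSB pseudogenes, the most abundant with 6755 counts in all against 9748 for GUSB, so reads may be divided among them and the GUSB level is uncertain. HEXA, the alpha subunit of the beta-hexosaminidase that degrades the ganglioside GM2, was at 215 and 197 CPM in WT and 126 and 122 CPM in ICM 3-4 (log2 fold change -0.97, SE 0.33, adjusted p 0.0493). That call was lost under relative log expression scaling (adjusted p 0.0668) and total-count scaling (0.0835). Of the others, the alpha-iduronidase IDUA was at 23.3 and 23.0 CPM in WT, against 12.7 and 2.73 CPM in ICM 1-2 and 9.37 and 8.44 CPM in ICM 3-4, below WT in all 4 libraries without a call (adjusted p 0.178 and 0.137). FUCA1, a fucosidase, had 2.74 and 2.94 CPM in WT and 4.79 to 8.51 CPM in the 4 ICM libraries, also without a call. With the 4 compared libraries alone, IDUA (-1.57, adjusted p 0.00101) and FUCA1 (0.84, adjusted p 0.0487) were called in ICM 3-4. GAA (acid alpha-glucosidase), MAN2B1 (alpha-mannosidase) and NAGLU (alpha-N-acetylglucosaminidase) were not called in any comparison, with fold changes of -1.07 to 0.39 against WT or between ICM sets.

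The sulfatases remove sulfate from glycosaminoglycans and sulfolipids. GALNS, which desulfates keratan and chondroitin sulfate, was at 75.7 and 73.5 CPM in WT, against 34.6 and 25.3 CPM in ICM 1-2, groups that did not overlap (log2 fold change -1.44, SE 0.35, adjusted p 0.0237). ICM 3-4 had 59.3 and 41.5 CPM, below WT but without a call (-0.80, SE 0.34, adjusted p 0.0984). With the 4 compared libraries alone, GALNS was called there (-0.75, adjusted p 0.0252). The call in ICM 1-2 was lost without ICM 2 (-1.17, adjusted p 0.0981). IDS, the iduronate sulfatase, was at 150 and 152 CPM in WT, 165 and 89.6 CPM in ICM 1-2 and 241 and 229 CPM in ICM 3-4, with fold changes of -0.36 and 0.40 and no call. SGSH, ARSA and ARSB, which act on heparan sulfate, sulfatide and dermatan sulfate, were not called either, and their fold changes against WT ran from -0.89 to 0.39.

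The proteases held the widest contrasts of the list. CTSL, a cysteine cathepsin, was at 118 and 113 CPM in WT, against 331 and 370 CPM in ICM 3-4 (log2 fold change 1.36, SE 0.44, adjusted p 0.0389). ICM 1-2 had 163 and 291 CPM, above both WT libraries but without a call (0.82). CTSB, another cysteine cathepsin, had negative values in both sets. It was at 1018 and 1025 CPM in WT, 751 and 250 CPM in ICM 1-2 and 470 and 403 CPM in ICM 3-4. All 4 ICM libraries lay below WT, but the change was not called in the single fit (-1.13 with adjusted p 0.225, and -1.46 with adjusted p 0.0836). With the 4 compared libraries alone, CTSB was called in ICM 3-4 (-1.42, adjusted p 0.000746). The ratio of CTSL to CTSB CPM within a library was 0.116 and 0.11 in WT, 0.218 and 1.16 in ICM 1-2, and 0.704 and 0.92 in ICM 3-4. This ratio is not per length and is compared here between libraries only. It was higher in all 4 ICM libraries than in either WT library, and siBANF1 1, at 0.0885, was the 1 ICM-treated library below WT.

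CTSK and CTSS, cysteine cathepsins best known from osteoclasts and from antigen-presenting cells, had the 2 lowest fold changes of the list in ICM 3-4. CTSK was at 42.2 and 33.7 CPM in WT, 48.4 and 13.5 CPM in ICM 1-2 and 5.44 and 3.55 CPM in ICM 3-4 (log2 fold change -3.31 in ICM 3-4, SE 0.85, adjusted p 0.0167). CTSS was at 22.4 and 15.5 CPM in WT, 8.22 and 1.29 CPM in ICM 1-2 and 0.293 and 0.315 CPM in ICM 3-4 (-6.19, SE 1.52, adjusted p 0.0139), where the 2 libraries held 7 and 8 counts. Of the immune markers, CD14 was at 12.9 CPM in ICM 1, where CTSS lay below WT. CD14 had 1.34 and 0.576 CPM in WT, 0.7 CPM in ICM 2 and 1.13 and 1.1 CPM in ICM 3-4. The other immune markers had 0 to 0.205 CPM in ICM 1, and CSF1R was under 0.6 CPM in every library. The part of immune cells in the CTSS and CTSK values was not tested. Fibroblast markers moved alongside: PDGFRA was at 1555 and 1791 CPM in WT and 30.4 and 15.5 CPM in ICM 3-4, and LUM at 156 and 139 against 18.7 and 10.3 CPM, and their part in these falls was not tested. CTSZ, a carboxypeptidase, was at 103 and 105 CPM in WT and 75.0 and 52.3 CPM in ICM 3-4 (-0.94, SE 0.32, adjusted p 0.048), and its call was lost under relative log expression scaling (adjusted p 0.0648) and total-count scaling (0.0749). CTSD, the main aspartic protease, changed little in ICM 3-4 (505 and 485 CPM in WT, 618 and 580 CPM in ICM 3-4, fold change 0.04) and had 470 and 215 CPM in ICM 1-2. CTSA, the protective protein that also stabilises beta-galactosidase, had fold changes of -0.65 and -0.55 without a call.

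TPP1, a tripeptidyl peptidase, was low in some libraries of the first ICM set. It was at 260 and 264 CPM in WT, 261 and 236 CPM in siHMGB2, 194 and 203 CPM in ICM 3-4 and 199 and 182 CPM in siCTCF. ICM 1 had 143 CPM and siBANF1 1 306 CPM, but ICM 2, siBANF1 2 and both libraries labelled siSRRM2 had 15.9 to 19.0 CPM. TPP1 was therefore at or below 19.0 CPM in 4 of the 6 libraries of ICM 1-2, siSRRM2 and siBANF1 and in no other library. No comparison called it in the single fit (fold change -1.77, SE 1.07, adjusted p 0.29 in ICM 1-2 against WT). With the 4 compared libraries alone it was called lower in ICM 3-4 against WT (-0.60, adjusted p 0.018).

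**Figure D4:**
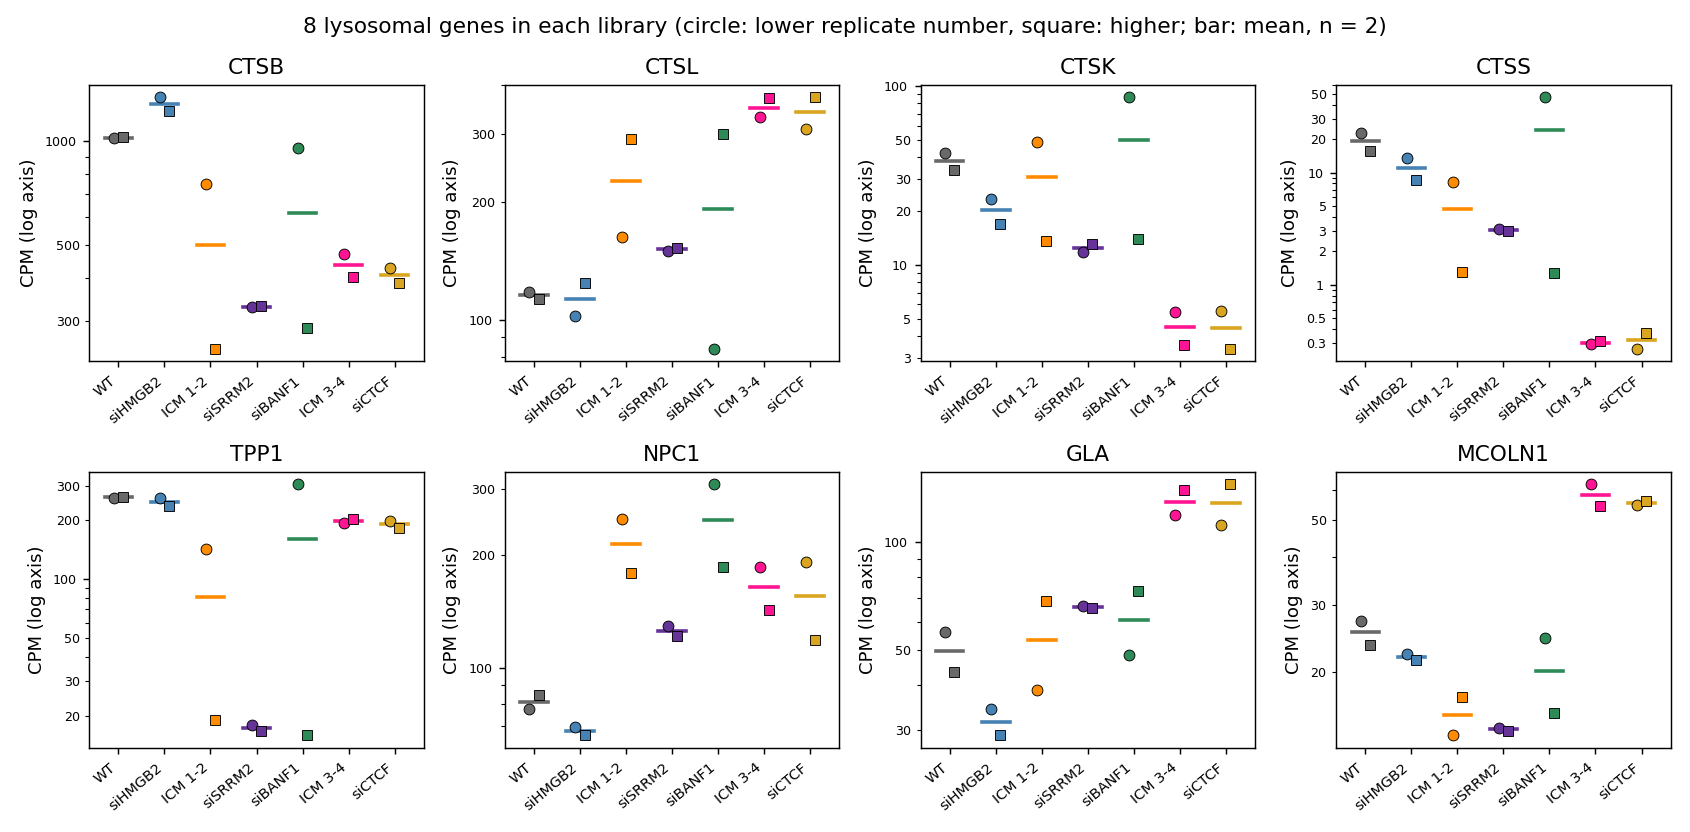
Level in CPM (log axis) of 8 lysosomal genes in each library by group, with the group mean as a bar. CTSB lies below WT and CTSL above it in the ICM 3-4 libraries, CTSK and CTSS are lowest in ICM 3-4 and siCTCF, and TPP1 lies near 20 CPM or below in 4 libraries.

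Among the genes of lipid breakdown and cholesterol export, NPC1, the membrane protein that passes cholesterol out of the lysosome, was at 77.8 and 84.5 CPM in WT, against 250 and 179 CPM in ICM 1-2 (log2 fold change 1.28, SE 0.37, adjusted p 0.0428). ICM 3-4 had 186 and 143 CPM, so all 4 ICM libraries lay above WT. The change there was not called in the single fit (0.79) but was with the 4 compared libraries alone (0.83, adjusted p 0.0111). Without ICM 1 the fold change in ICM 1-2 was 0.93 with an adjusted p of 0.111. NPC2, the soluble protein that hands cholesterol to NPC1, was at 93.3 and 84.3 CPM in WT and 66.0 to 93.4 CPM in the ICM libraries (-0.28 and -0.44, not called). ASAH1, the acid ceramidase, was at 120 and 112 CPM in WT, 285 and 133 CPM in ICM 1-2 and 70.1 and 85.3 CPM in ICM 3-4. It lay above WT in the first set and below it in the second, with neither difference called in the single fit (0.74 and -0.83). The second was called with the 4 compared libraries alone (-0.78, adjusted p 0.00757). SMPD1 (acid sphingomyelinase), PPT1 (palmitoyl-protein thioesterase), LIPA (acid lipase) and PSAP had fold changes of -0.66 to 0.38 and no call.

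Of the membrane proteins, MCOLN1, the calcium channel that releases lysosomal calcium, rose in ICM 3-4. It was at 27.3 and 23.6 CPM in WT and 62.1 and 54.6 CPM in ICM 3-4 (log2 fold change 0.96, SE 0.27, adjusted p 0.0235). ICM 1-2 had 13.7 and 17.3 CPM, below both WT libraries, without a call (-0.86, adjusted p 0.0582). MCOLN1 is the gene whose promoter holds both the 10-base and the 8-base motif printed above. For the other genes with the 8-base motif, the fold changes in ICM 3-4 were 0.68 for ATP6V0D1, -0.55 for CTSA, -0.64 for LAMP1, -0.68 for GAA and -0.80 for GALNS. None of these 5 was called in the single fit. With the 4 compared libraries alone, ATP6V0D1 was called higher (0.73, adjusted p 0.00931), and CTSA, LAMP1 and GALNS were called lower. The abundant wall proteins LAMP1 and LAMP2 were at 494 and 500 CPM and at 211 and 223 CPM in WT, and both had a fold change of -0.64 in ICM 3-4 without a call (-0.60 each, called with the 4 compared libraries alone). SCARB2, an integral protein of the lysosomal membrane, had 307 and 330 CPM in WT, 533 and 261 CPM in ICM 1-2 and 254 and 231 CPM in ICM 3-4. CD63 lay between 789 and 1002 CPM in all 14 libraries and had the smallest fold change in ICM 1-2, 0.01.

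All 3 proton pump genes had positive fold changes against WT in both sets. ATP6AP1, an accessory subunit, was at 109 and 92.6 CPM in WT, 184 and 163 CPM in ICM 1-2 and 260 and 256 CPM in ICM 3-4. It rose in ICM 3-4 (1.12, SE 0.26, adjusted p 0.0113) and was not called in ICM 1-2 (0.66, adjusted p 0.114). ATP6V1H, a regulatory subunit, was at 49.3 and 51.6 CPM in WT and 59.3 to 135 CPM in the 4 ICM libraries (0.78 and 0.76, not called). With the 4 compared libraries alone, ATP6V1H was called in ICM 3-4 (0.80, adjusted p 0.00571). ATP6V0D1, of the membrane sector, was at 114 and 110 CPM in WT and 219 and 206 CPM in ICM 3-4, with ICM 1 below WT at 90.0 CPM (0.06 and 0.68). TFEB was scarce, at 2.01 to 5.85 CPM over the 14 libraries, and no comparison called it.

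HMGB2 knockdown in untreated cells left the list within the pooled spread, with single genes that stood apart from it. The single edgeR fit called 0 of the 39 genes and 0% of all genes (2 of 39 and 4.75% of all genes at an unadjusted p under 0.05), and DESeq2 called 0 of the 39 and 74 genes in all. The spread of the single edgeR fit includes the ICM 1-2 and siBANF1 replicates, and that fit did not call HMGB2 itself (adjusted p 0.201). With the 4 compared libraries alone, 7 of 39 genes were called, where 11.1% of all genes were (6.23% higher, 4.86% lower). ATP6AP1, at 109 and 92.6 CPM in WT and 180 and 190 CPM in siHMGB2, was higher by 0.94 on the log2 scale (SE 0.14, adjusted p 2e-06 in that fit), and it was the 1 gene of the list also called when ICM 1-2 and siBANF1 were left out of the fit (adjusted p 0.0137; 1.36% of all genes). FUCA1 (2.74 and 2.94 against 5.55 and 4.74 CPM), SMPD1 (112 and 111 against 134 and 173 CPM) and LIPA (22.5 and 29.7 against 36.6 and 33.2 CPM) were also higher in the fit to 4 libraries, by 0.92, 0.53 and 0.48. CTSK (42.2 and 33.7 against 23.3 and 17.0 CPM), CTSS (22.4 and 15.5 against 13.4 and 8.55 CPM) and GLA (56.2 and 43.5 against 34.3 and 29.0 CPM) were lower, with fold changes of -0.86, -0.73 and -0.60. None of the 7 overlapped between the groups, as was so for 28 of the 39 genes (71.8%) and 49.0% of all genes. GLB1 had a fold change of 0.16 in that fit (adjusted p 0.574).

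**Figure D5:**
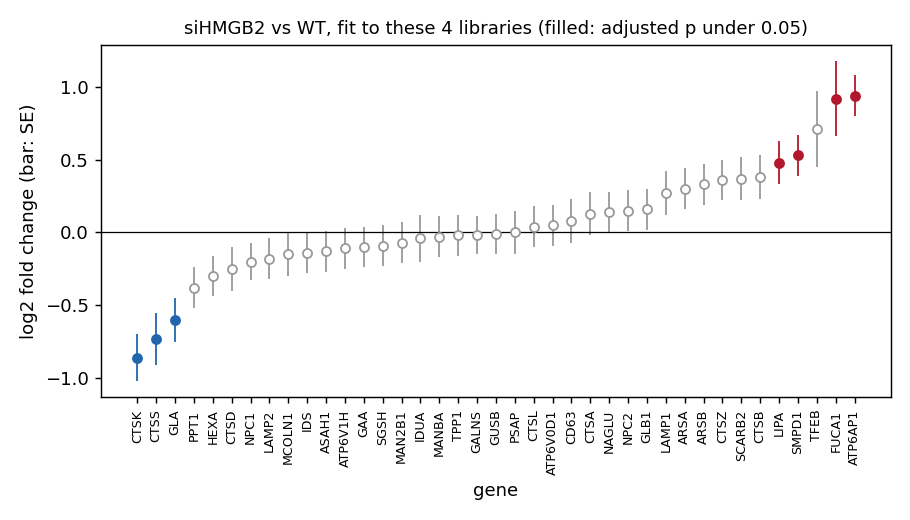
Log2 fold change of siHMGB2 against WT with its standard error (vertical axis) for 39 genes in the fit to these 4 libraries alone. Filled points passed an adjusted p of 0.05, 3 lower and 4 higher, while the fit of all 14 libraries called none.

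In the libraries labelled siSRRM2, 0 of 39 genes were called against ICM 1-2 by edgeR, where 0.178% of all genes were (3 of 39 and 11.3% of all genes at an unadjusted p under 0.05, and DESeq2 called 0 of 39). Fold changes were negative for 33 of the 39, with a median of -0.24 against -0.10 over all genes. That direction rests on the ICM library chosen: the median turned to 0.22 without ICM 1 and was -0.70 without ICM 2. The 3 genes past an unadjusted p of 0.05 were LIPA (19.8 and 22.2 CPM in ICM 1-2, 33.5 and 36.5 CPM in siSRRM2), ARSB (137 and 84.0 against 65.2 and 62.4 CPM) and ASAH1 (285 and 133 against 114 and 114 CPM), with adjusted p values of 0.273, 0.286 and 0.346. None of these 3 overlapped between the groups, as was so for 15 of the 39 genes and 41.5% of all genes. GLB1 had a fold change of -0.24 (SE 0.42, adjusted p 0.871), which was 0.64 without ICM 1.

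In the libraries labelled siBANF1, which share the ICM 1-2 control, 0 of 39 genes and 0% of all genes were called by edgeR (1 of 39, ARSB, and 3.09% of all genes at an unadjusted p under 0.05, and DESeq2 called 0 of 39). The median was 0.02 against 0.03 over all genes, and it was 0.48 without ICM 1 and -0.27 without ICM 2. Of the same-numbered libraries, siBANF1 2 and ICM 2 were close, with a median ratio of 0.998 (range 0.815 to 1.3 over 39 genes). The ratio of siBANF1 1 to ICM 1 also had a median near 1 (1.01), but single genes lay far from it in both directions (range 0.406 to 5.69). The upper end of that range was CTSS, at 8.22 CPM in ICM 1 and 46.8 CPM in siBANF1 1. GLB1 had a fold change of -0.60 (SE 0.42, adjusted p 1). It was lower in both same-numbered pairs, with ratios of 0.559 (siBANF1 1 to ICM 1) and 0.873 (siBANF1 2 to ICM 2), and the value of 0.28 without ICM 1 sets both libraries against ICM 2 alone. Set against each other, the libraries labelled siBANF1 and siSRRM2 differed in 0 of the 39 genes, where 0.272% of all genes were called. DESeq2 called 3 of 39 and 1333 of 19126 genes. At an unadjusted p under 0.05, edgeR called 6 of 39 and 15.5% of all genes. The widest of the 6 was TPP1, with a fold change of 3.33 (SE 1.14, adjusted p 0.203), which came from siBANF1 1 alone, since siBANF1 2 had 15.9 CPM. Without siBANF1 2, 9 of the 39 were called, where 11.1% of all genes were.

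The siCTCF libraries were close to ICM 3-4 for the whole list. edgeR called 0 of 39 genes and 0% of all genes (0 of 39 and 0.654% of all genes at an unadjusted p under 0.05), and DESeq2 called 0 genes in all. Fold changes ran from -0.15 to 0.20 over the 39 genes. CTSL had 309 and 372 CPM in siCTCF against 331 and 370 CPM in ICM 3-4, GLA 112 and 145 against 119 and 140 CPM, and MCOLN1 54.9 and 56.2 against 62.1 and 54.6 CPM, so these groups overlapped. GLB1 had a fold change of -0.03 (SE 0.42, adjusted p 1). The SE of 0.42 sets what could be seen for GLB1, and a missing call does not show that the levels are alike.

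The 2 ICM sets carry the same treatment label and were tested against each other. Of 39 genes 5 were called, where 19.5% of all genes were (8.53% higher, 11.0% lower). MCOLN1 (13.7 and 17.3 CPM in ICM 1-2, 62.1 and 54.6 CPM in ICM 3-4) and GLA (38.8 and 68.4 against 119 and 140 CPM) were higher in ICM 3-4, by 1.82 (adjusted p 0.00272) and 1.18 (adjusted p 0.0147). ASAH1 (285 and 133 against 70.1 and 85.3 CPM), CTSK (48.4 and 13.5 against 5.44 and 3.55 CPM) and MANBA (213 and 50.7 against 35.8 and 25.5 CPM) were lower there, with fold changes of -1.57 (adjusted p 0.0129), -2.92 (adjusted p 0.0336) and -2.25 (adjusted p 0.0492). None of the 5 overlapped between the sets, as was so for 19 of the 39 genes and 56.0% of all genes. In the fit to these 4 libraries alone edgeR called 0 of 39 and 1.25% of all genes (6 of 39 and 22.8% at an unadjusted p under 0.05). DESeq2 on all libraries called 6 of 39 and 5454 of 19126 genes. Leaving out ICM 2 gave 11 called genes, where 31.7% of all genes were called, and leaving out ICM 1, ICM 3 or ICM 4 gave 1 each.

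Outside the list, 99 further genes of the lysosome and its control were read from 6 lists, of which 96 were tested. Their counts stand beside 14.3% higher and 16.0% lower over all genes in ICM 3-4, and 6.63% and 6.87% in ICM 1-2. Of 13 other proton pump subunits, 5 rose and 1 fell in ICM 3-4, with a median of 0.44. ATP6V1B2, a catalytic-sector subunit, was at 110 and 115 CPM in WT and 318 and 494 CPM in ICM 3-4 (1.60, adjusted p 0.0456), and ATP6AP2, an accessory subunit, at 246 and 247 against 159 and 200 CPM (-0.71, adjusted p 0.0379). In ICM 1-2, 1 pump subunit rose (ATP6V1A, 1.19) and 1 fell (ATP6V0C, the proteolipid ring subunit, -2.35), and ATP6V0C stood at 194 and 179 CPM in WT, 32.4 and 49.0 CPM in ICM 1-2 and 463 and 463 CPM in ICM 3-4. Of 18 regulators, 5 rose and 2 fell in ICM 3-4. FNIP1, a partner of folliculin in nutrient sensing, was the highest of those called in both sets, at 33.8 and 37.6 CPM in WT, 98.3 and 179 CPM in ICM 1-2 and 75.1 and 153 CPM in ICM 3-4 (1.80, adjusted p 0.00789, and 1.42, adjusted p 0.0118). PPARGC1A, a coactivator of mitochondrial genes, was the lowest in both (11.4 and 11.1 CPM in WT, 0.544 to 2.29 CPM in the 4 ICM libraries, fold changes -3.45 and -3.26). TFE3, named after its values were seen, rose in ICM 3-4 (104 and 107 CPM in WT, 350 and 304 CPM in ICM 3-4, 1.40, adjusted p 0.00504) and had 76.3 and 123 CPM in ICM 1-2. In the libraries labelled siSRRM2, 1 of the 96 genes was called against ICM 1-2: RRAGC, a Rag GTPase, at 41.9 and 67.4 CPM in ICM 1-2 and 17.8 and 16.8 CPM in siSRRM2 (-1.65, adjusted p 0.0425).

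Of 25 other enzymes and activators tested, 3 rose and 8 fell in ICM 3-4 (median -0.94), and 2 rose and 1 fell in ICM 1-2, where 30.3% and 13.5% of all genes were called. LGMN, the asparagine endopeptidase, rose in ICM 3-4 from 24.5 and 28.6 CPM to 69.7 and 76.9 CPM (1.22, adjusted p 0.00259). ACP5, the tartrate-resistant acid phosphatase, was the lowest, with 254 counts in the WT libraries and 2 in ICM 3-4, a CPM ratio of 0.0112 (95% Clopper-Pearson interval 0.00135 to 0.0408, counting error only). In ICM 1-2 the highest of those called was PLA2G15, a phospholipase (18.7 and 20.5 against 69.3 and 42.7 CPM, 1.40). Among 15 other membrane proteins, 2 rose and 1 fell in ICM 3-4: CD68 was highest (39.1 and 39.5 against 95.0 and 104 CPM, 1.10), and LAPTM4A fell in both sets (900 and 807 CPM in WT, 327 and 179 in ICM 1-2, 296 and 243 in ICM 3-4). Of 8 sorting genes, GGA3 rose (26.0 and 29.2 against 88.2 and 112 CPM, 1.61) and SORT1 fell (132 and 180 against 79.4 and 58.1 CPM, -1.41) in ICM 3-4, and none was called in ICM 1-2. Of 17 autophagy genes, 4 rose and 1 fell in ICM 3-4, with ATG9A highest (83.1 and 79.0 against 226 and 220 CPM, 1.22) and OPTN lowest (121 and 145 against 36.6 and 38.9 CPM, -2.06). ULK1 and RAB7A were the 2 called in ICM 1-2, both lower (-2.44 and -1.28).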

How the data were processed

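RNA-seq counts of 14 libraries were used. The authors deposited whole-number counts per gene symbol, 1 table per library. The submitters' processing notes name the build hg38 and STAR 2.7.3a, HTSeq 0.12.4 and DESeq2 1.36.0, with no role or order. The annotation release and strand setting are not given in the sources used here, so overlapping genes may share reads (41.7% of CTSD exon bases overlap a same-strand transcript, 28.5% of CTSA an opposite-strand gene). Lines naming no gene (12.75% to 41.78% of reads) were dropped. CPM was computed from unadjusted totals, and exon lengths are merged GENCODE v29 exons. All libraries entered 1 edgeR 4.0.16 (R 4.3.3) quasi-likelihood fit with 7 group means (7 residual degrees of freedom, TMM scaling, filterByExpr, 19126 genes). Calls used p-values adjusted by Benjamini-Hochberg over all genes, with a threshold of 0.05. The fit was tested on simulated data. Alternatives were other scalings and filters, DESeq2 1.42.0, fewer libraries, a replicate block and leaving out each library; fits without ICM 1-2 and siBANF1, and blocks by file number (siCTCF) or crossed number (ICM 1-2 with WT), were added after seeing the data. The 40 genes, the other lists and the tests were chosen with earlier results of these data known. Named genes are GLB1, every listed gene called, the targets, and the extreme called genes of each other list, of which 1 is not reported here. Other steps used Python 3.11.15.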

Additional observations from a re-analysis of the deposited data

Results flagged for a closer look

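Within the 4 ICM libraries, 3 lysosomal genes had 1 library whose gap to the others exceeded the 95% limit of Dixon's test, each time ICM 1 as the highest: MANBA at 213 CPM (the others 25.5 to 50.7 CPM), CTSS at 8.22 CPM (the others 0.293 to 1.29 CPM) and SCARB2 at 533 CPM (the others 231 to 261 CPM). Chance flags about 1 in 20 groups, and the 39 genes tested come from the same 4 libraries. siBANF1 1 was also high for MANBA (194 CPM) and CTSS (46.8 CPM).

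The level of 5 genes differed between the 2 ICM sets in the single fit (edgeR adjusted p 0.00272 to 0.0492), while the fit to the compared libraries only called 0 of 39. WT has no library of the ICM 3-4 label form, so a difference in the effect of ICM cannot be read from this test. The difference, ICM 3-4 minus ICM 1-2 on the log2 scale, was 1.82 for MCOLN1, 1.18 for GLA, -1.57 for ASAH1, -2.25 for MANBA and -2.92 for CTSK. Label set, depth and small RNA share (3.19% and 6.06% in ICM 1-2, 0.00515% and 0.00764% in ICM 3-4) move with this difference, and their part in it was not tested.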

How the results depend on the processing

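The number of listed genes called depended on the libraries that share the spread. Shares or counts over all genes stand in brackets. For ICM 1-2 against WT it was 3 (13.5%), and 0 with the compared libraries only (0.173%). It was 8 without a low-count filter (3883 of 33733) and 5 with DESeq2 (4010 of 19126). For ICM 3-4 against WT it was 10 (30.3%), and 25 with the compared libraries only (47.8%). It was 29 without ICM 1-2 and siBANF1 (10486 of 19124). For siHMGB2 it was 0 (0%), and 7 (11.1%) and 1 (1.36%) in these same 2 fits. Labelled siSRRM2 gave 0 (0.178%), 2 without a filter (814 of 33733) and 5 with ICM 3-4 as control (4284 of 19126). Labelled siBANF1 gave 0 (0%), 1 without a filter (161 of 33733) and 4 with ICM 3-4 as control (3016 of 19126). Between the ICM sets it was 5 (19.5%), and 0 with the compared libraries only (1.25%). Between labelled siBANF1 and siSRRM2 it was 0 (0.272%), 6 without a filter (1361 of 33733) and 3 with DESeq2 (1333 of 19126). Leaving out 1 library gave 0 to 6 (ICM 1-2), 1 to 3 (ICM 3-4), 1 to 11 (between sets), 0 to 9 (labelled siBANF1 against siSRRM2) and 0 in the other comparisons.

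GLB1 changed sign in ICM 1-2 against WT without ICM 1 (-0.48 to 0.94 over the single libraries left out), in labelled siSRRM2 (-0.78 to 0.64, and 0.47 with ICM 3-4 as control) and siBANF1 (-1.14 to 0.28, and 0.10), in siCTCF (-0.30 to 0.27, with 0.19 without siCTCF 2) and between the sets (0.18 without ICM 1), and it was called between the sets without ICM 2 (-1.25, adjusted p 0.0222). The cause was not tested.

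A replicate block with the compared libraries only called 4 listed genes in ICM 1-2 (1445 of 19117 genes). It called 10 in siHMGB2 (2314 of 18623 genes). It called 0 in the labelled siSRRM2 (105 of 19054), siBANF1 (1 of 19071) and their comparison (144 of 19063). It also called 0 in siCTCF paired by file number (4 of 18546). The replicate numbers are shared by only 2 libraries a group. Deviations of same-numbered libraries correlated across 13123 genes at 0.86 (ICM 1-2 and siBANF1), 0.82 (ICM 3-4 and siCTCF), 0.21 (WT and siHMGB2), 0.1 (siSRRM2 and siBANF1), 0.06 (ICM 1-2 and siSRRM2) and -0.2 (WT and ICM 1-2). With WT and ICM 1-2 numbers crossed, the block gave 4 listed genes and 1540 genes in all, against 4 and 1445 with the numbers as labelled.

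Over all genes, ICM 1-2 against WT called 2582 genes, and 4010 with DESeq2, 3883 without a filter, 1460 among protein-coding genes and 33 with the compared libraries only. ICM 3-4 called 5797, and 9021 and 10486 in the fits above. siHMGB2 called 0, and 2066, 261, 94 (no filter) and 74 (DESeq2). Labelled siSRRM2 called 34, and 814 without a filter and 727 with DESeq2. Between the sets 3738 were called, and 239 with the compared libraries only.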
